A study of Mus musculus with 12 samples.

Results

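The peak list for the p53 antibody in wild-type (WT) mouse back skin held 2909 peaks, out of 9474 peaks in the 3 lists of the series. Every peak of the p53 list whose name carries no K17_KO was taken, and WT was inferred because the other p53 list names K17_KO. Of these peaks, 2873 lay on chromosomes 1 to 19, 23 on chromosome X, 8 on chromosome Y and 5 on unplaced sequence, and all values below are for chromosomes 1 to 19 unless another sequence is named. Chromatin immunoprecipitation with sequencing (ChIP-seq) had been done on the back skin of 8 to 10 week old mice under a radiation protocol of 5 Gy. The list belongs to the groups p53 T0 WT and p53 6h WT, with 2 samples each, both of wild-type genotype and both labelled as irradiated. The other groups of the series, also with 2 samples each, are p53 T0 K17KO and p53 6h K17KO, of the genotype K17KO as the labels write it, and H3K4me3 T0 WT and H3K4me3 6h WT. The list names no library, time, replicate or control, so T0 and 6 h cannot be told apart, no value has a replicate error, and no test between samples could be made. The intervals given are exact 95% intervals (Clopper-Pearson for shares, Poisson for counts) and cover counting error only. Peaks hold no expression values, so the tissue label could not be checked against marker genes.

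The transcription factor p53 is stabilised after DNA breaks and binds DNA as a tetramer, at sites made of a pair of decamers called half-sites, each with a CATG-like core. Its targets halt the cell cycle (Cdkn1a), restrain p53 itself (Mdm2), commit cells to apoptosis (Bax, Bbc3), repair DNA or change metabolism. It also switches on noncoding RNAs, among them the microRNA miR-34a and lincRNA-p21, the product of Trp53cor1 next to Cdkn1a. In skin, ionizing radiation activates p53 in the epidermis and in hair follicles.

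The DNA of annotated promoter windows is shown where a peak overlapped one (RefSeq, build GRCm38.p6, with the same coordinates as mm10). A window ran from 250 bases before an annotated start to 50 after it, and a gene can have several starts. The whole window was searched, also where a peak overlapped only 1 bp of it. In all, 60 peaks overlapped 65 windows of 64 genes, 47 of them windows of protein-coding genes and 18 of long noncoding RNA (lncRNA) genes. The p53 half-site motif of 10 bases, searched by its usual consensus, which reads the same on both strands, was present in 10 of these 65 windows (15.4%, 7.63 to 26.5%). It was present in 2623 of 31396 windows of the same length on these chromosomes (8.35%), a share within the interval of the overlapped windows. A half-site lay inside the peak itself in 6 of the 65 windows (9.23%). In 5 of the 10 windows the nearest half-site was within 20 bp of the summit, the peak's highest point. For 4 of those 5 the half-sites were upstream of the window's start. At Cdkn1a and Gm51651 that start is the outer end of the gene, and the 250 bases before it are printed. At Rps27l and Rps19 it is an alternative start 1789 and 321 bp inside the gene, and only the half-site nearest the summit is printed, with 10 bases on each side. All read 5′ to 3′ with half-sites in capitals, to show the sequence at or near the summits:
Cdkn1a chr17:29090729-29090978 (+): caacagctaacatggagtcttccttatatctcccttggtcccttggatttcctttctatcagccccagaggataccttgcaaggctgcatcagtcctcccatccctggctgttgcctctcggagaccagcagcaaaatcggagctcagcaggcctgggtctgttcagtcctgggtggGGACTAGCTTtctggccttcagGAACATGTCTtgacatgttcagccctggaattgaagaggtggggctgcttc
Rps27l chr9:66946296-66946325 (+): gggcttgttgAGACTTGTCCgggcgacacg
Rps19 chr7:24884803-24884832 (+): cggcaggcccGGACATGCCTgatcgccgca
Gm51651 chr1:155056274-155056523 (+): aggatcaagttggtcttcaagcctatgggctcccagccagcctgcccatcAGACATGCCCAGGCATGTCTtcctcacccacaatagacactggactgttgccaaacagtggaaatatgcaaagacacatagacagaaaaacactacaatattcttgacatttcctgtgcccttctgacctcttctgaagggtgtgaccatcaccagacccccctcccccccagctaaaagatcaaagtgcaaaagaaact

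The Cdkn1a window held 2 half-sites 12 bp apart, and the peak's summit was 6 bp from the nearer one. The search allowed no mismatch. Directly after the second half-site stand the bases tgacatgttc, which differ from the consensus only at the first base and were left unmarked. In the window of Gm51651, a lncRNA gene, 2 half-sites followed each other with a spacer of 0 bp, and the summit was 1 bp away. A full site, meaning 2 half-sites with 0 to 13 bp between them, was found in these 2 overlapped windows (3.08%, 0.375 to 10.7%) and in 23 of the 31396 windows (0.0733%). The Rps27l window held 2 half-sites too far apart to make a full site, and the summit was 12 bp from the nearer one, which is the one printed. Directly before it stand the bases gggcttgttg, which differ from the consensus only at the last base and were also left unmarked. The same Rps19 peak overlapped 2 windows of that gene: the one shown held 1 half-site, with the summit 16 bp away, and the other held 0. A match is a description of the letters, not a binding site. Most overlapped windows, 55 of 65, held no half-site, among them that of Phlda3, one of the 3 listed p53 targets with an overlapped window. The Phlda3 peak overlapped 82 bp of that window, and its summit lay beyond the window, in DNA that was not searched. Inside the peak, the window ends in the bases gaacatgt, which match the half-site consensus up to the edge. Whether a whole half-site stands there could not be seen. Of the 79 windows of all listed p53 targets, 18 held a half-site (22.8%).

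Next to the promoters stands Mir34a, the gene of miR-34a, which represses cell cycle and survival genes. The peak of highest fold in the list was its nearest peak, 19.3 kb from the gene. The mature sequences are shown with the seed, bases 2 to 8, in capitals, because the seed sets which messages the microRNA can pair with, and the 2 arms of the hairpin do not share it (RefSeq, GRCm38.p6):
miR-34a-5p: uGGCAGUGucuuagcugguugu
miR-34a-3p: aAUCAGCAaguauacugcccu

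Peaks in the WT list were shallow and low. The fold enrichment that the authors deposited for each peak ranged from 1.17 to 10.2, with a median of 4.02 and quartiles of 3.51 and 4.52. The fragments under each summit, worked out from the authors' fold and p, had a median of 7 over a background of 0.992. In all, 2320 of the 2873 peaks (80.8%) rested on 5 to 8 fragments, and 133 (4.63%) on more than 10. The fold took only 226 different values, and 255 peaks shared a single value, 4.20, so ranks by fold hold many ties. A q-value limit of 0.1 left 1730 peaks (60.2%) and a limit of 0.01 left 355 (12.4%).

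Widths were near the smallest value in the list. The narrowest peaks spanned 216 bp, and 1456 of the 2873 peaks (50.7%, 48.8 to 52.5%) had exactly that width. The upper quartile was 279 bp, 543 peaks (18.9%) were wider than 300 bp, and 21 were wider than 500 bp. Width hardly followed depth across peaks: Spearman's rho was 0.07 with the fragments and −0.02 with the fold, both measured on the same pile of fragments. The share at 216 bp was 56.0% among peaks of 7 fragments and 18.5% among peaks of 11 or 12. The 50 peaks of highest fold had a median width of 275 bp.

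The widest peak, at 731 bp, lay inside Tmem267 on chromosome 13, at 2.12-fold with 159 fragments over a background of 74.4. The other 9 of the 10 widest peaks measured 549 to 628 bp and had 6 to 11 fragments. Among them were peaks inside Cxcl12, which encodes a chemokine of stromal cells, Camk1g, a calmodulin-dependent kinase, and Mcoln3, a lysosomal channel, at 3.67-fold, 4.02-fold and 3.53-fold. One of the widest, of 603 bp inside the zinc finger gene Zfp809, overlapped an H3K4me3 peak.

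**Figure D1:**
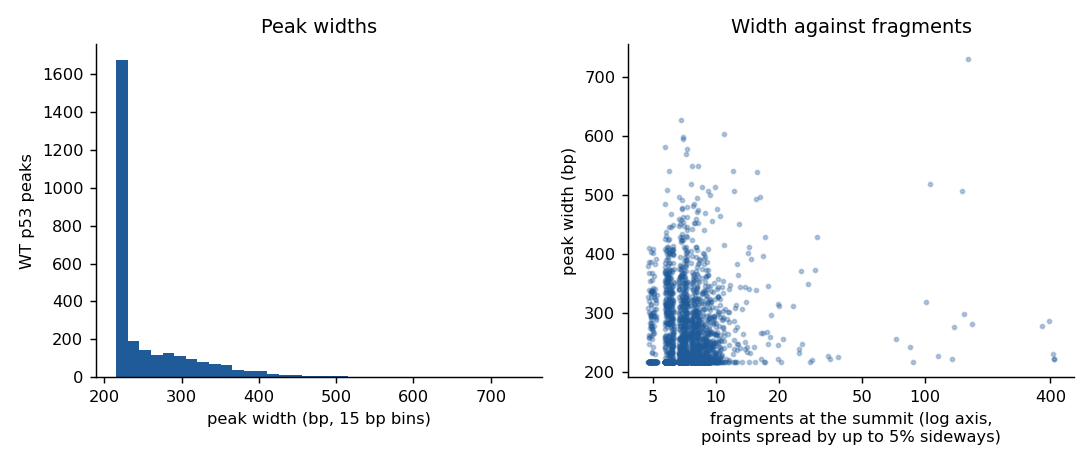
Left, number of WT p53 peaks by width in bins of 15 bp. Right, width in bp against fragments at the summit (log axis), 1 point a peak. The tall left bar includes the 1456 peaks of 216 bp, and the topmost point at the right is the 731 bp peak in Tmem267.

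Listed p53 targets were read against the rest of the genome. Of 20665 protein-coding genes, 590 had a peak midpoint within 5 kb of an end (2.86%), and of 72 listed p53 targets, 12 did. The members were chosen with earlier results of these data known, so the count is a description. The counts by role that follow stand beside the same 2.86%, and each of these lists is short.

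Among cell cycle arrest genes, 3 of 14 had a peak. At Cdkn1a, the cyclin-dependent kinase inhibitor p21, the peak chr17:29090757-29091094 had 15 fragments over 1.44, a 6.57-fold enrichment, with its midpoint 54 bp before the start. At Ccng1, cyclin G1, the peak inside the gene had 10 fragments (4.40-fold), 213 bp from an end. Plk2, a polo-like kinase, had 2 peaks, of 4.72-fold at 2203 bp and 3.86-fold at 418 bp from an end. Gtse1, a microtubule-binding regulator of p53, missed the window, with its nearest peak at 8231 bp.

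Of 9 genes of the p53 family and its feedback, 2 had a peak. Trp53inp1, a p53-induced cofactor, had one of 4.02-fold with 11 fragments, 396 bp from an end. Cop1, a ubiquitin ligase for p53, had one of 3.51-fold with 6 fragments, 3075 bp away. Mdm2, the main ubiquitin ligase of p53, had no peak nearer than 73494 bp, and Trp53 itself none nearer than 113539 bp. The part of depth and of the unknown calling threshold in these distances was not tested.

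Of 12 apoptosis genes, 2 had a peak (Eda2r, on chromosome X, was left out). Bax, the mitochondrial pore former, had the highest fold of the listed targets, 6.70 with 19 fragments over 1.98, at chr7:45466448-45466762 inside the gene, 298 bp from an end. Bbc3, which encodes PUMA, had 17 over 1.98 (6.03-fold) at chr7:16308421-16308916, 270 bp from an end. The death receptor gene Fas was among those without, its nearest peak 43753 bp away.

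None of 10 DNA repair genes had a peak within 5 kb, too few genes to set this apart from the 2.86% of all protein-coding genes. The nearest approach was at Xpc, which recognises damaged bases for nucleotide excision repair. It lay 12.6 kb from a 7.88-fold peak inside Tmem43, which has the fifth highest fold of the list. Tmem43 also held a neighbouring peak of 4.13-fold, 820 bp away.

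Of 27 genes of metabolism and growth signalling, 5 had a peak. Phlda3, which blocks Akt at the membrane, had 18 fragments over 1.93 (6.49-fold), 181 bp from an end. Rps27l, a ribosomal protein S27-like p53 target, had 18 over 3.21 (4.51-fold) inside the gene. Steap3, a ferrireductase, had a 4.20-fold peak at 1992 bp, and Ephx1, microsomal epoxide hydrolase, a 3.62-fold peak of 17 fragments over a higher background, 3.97. Slc19a2, a thiamine transporter, held 2 peaks, of 3.69-fold at 541 bp and 4.20-fold at 7997 bp from an end.

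The 4 target peaks of highest fold, at Bax, Cdkn1a, Phlda3 and Bbc3, were among the first 50 of the list by fold, at ranks 20, 21, 23 and 35. No further one entered the first 200, and the next, at Plk2, shared rank 388. Over the whole list 14 peaks lay within 5 kb of a listed coding or noncoding target, 0.487% of 2873.

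**Figure D2:**
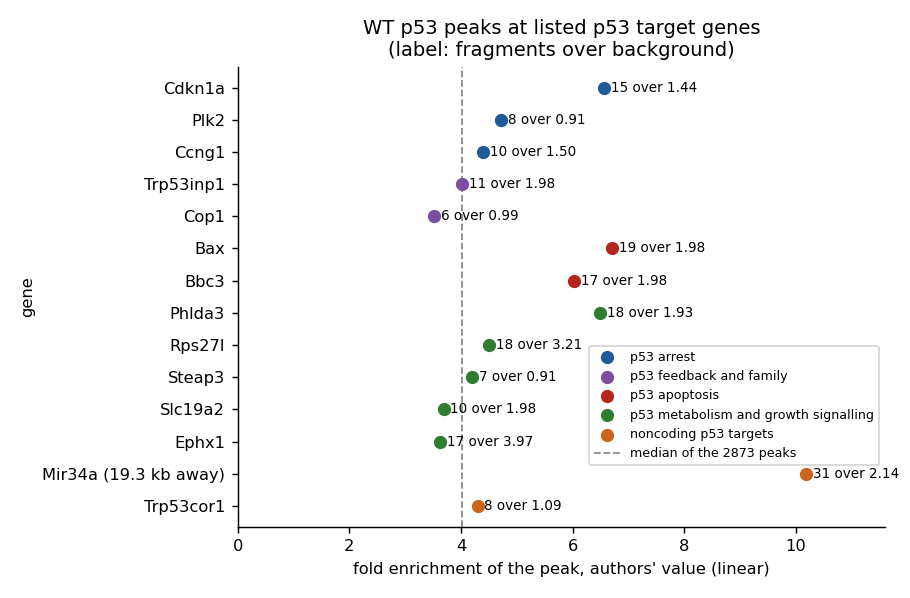
Fold enrichment (linear axis, the authors' value) of the WT p53 peak of highest fold within 5 kb of each listed target, 1 point a gene, coloured by role, with fragments over background beside it. Mir34a is added with its nearest peak. Bax, Cdkn1a, Phlda3 and Bbc3 stand between 6.03 and 6.70, to the right of the median of the list, and the other genes within 5 kb lie between 3.51 and 4.72.

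The peak of highest fold lay in a noncoding gene. This peak, chr4:150048925-150049353, the third of the list by p, at 10.2-fold with 31 fragments over 2.14, lay inside the lncRNA gene Gm13067 (chr4:150029405-150058717), 9578 bp from its nearer end and 38364 bp from the nearest protein-coding gene, Gpr157, a G protein-coupled receptor. It overlapped a K17KO p53 peak of 6.98-fold and an H3K4me3 peak of 2.13-fold. H6pd, a glucose-6-phosphate dehydrogenase of the endoplasmic reticulum, and Gpr157 had smaller peaks nearby, of 4.02-fold and 2.90-fold. Trp53cor1 was the only one of 23 listed noncoding targets with a peak within 5 kb, where 583 of 26377 noncoding genes had one (2.21%). Its peak, chr17:29078846-29079102, had 8 fragments over 1.09 (4.30-fold), 152 bp from an end and 11951 bp from the midpoint of the Cdkn1a peak, and it overlapped an H3K4me3 peak.

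By class, 343 of 12408 lncRNA genes (2.76%) had a peak within 5 kb, 78 of 3951 small RNA genes (1.97%) and 158 of 9496 pseudogenes (1.66%). The nearest gene of a peak was noncoding for 1553 of 2873 peaks (54.1%, 52.2 to 55.9%), a lncRNA for 854 (29.7%), a pseudogene for 547 and a small RNA for 145 (5.05%). Of the bases of these chromosomes, 59.6% have a noncoding nearest gene, 30.0% a lncRNA, 22.4% a pseudogene and 6.81% a small RNA. The share for all noncoding genes is above the interval of the peaks, and that for lncRNAs is inside theirs, 28.1 to 31.4%. These bases were counted with no mask for assembly gaps or repeats, and the part of this in the comparison was not tested. Most of these neighbours carry predicted names: of 467 peaks with a noncoding nearest gene within 5 kb, 48 had one with any other kind of symbol.

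The highest of those within 5 kb were at Gm6951, a pseudogene on chromosome 19 (8.54-fold, 16 fragments, 539 bp wide, inside the gene), at the lncRNA Gm38956 on chromosome 11 (7.73-fold, 2972 bp from an end) and at the pseudogene Gm46077 on chromosome 1 (6.82-fold, 127 bp from an end). Next came Gm18929 at 6.30-fold, then the lncRNAs Gm40642, Gm26843 and Gm39344, all at 5.77-fold with 10 fragments. Named noncoding neighbours included Mexis, a lncRNA that regulates Abca1 in macrophages, at 4.88-fold and 1021 bp. Nctc1, a lncRNA near the imprinted gene H19, followed at 4.63-fold and 4304 bp. A microRNA gene was nearest within 5 kb for 11 peaks, of which 2 were at Mir101c. Mir6955 had the highest fold of these, 5.52 at 3032 bp, inside Gga1, and the peak nearest to a microRNA gene lay 1 bp from Mir6419 at 4.20-fold. Small nucleolar RNA (snoRNA) genes were nearest for 15 peaks. Inside Snhg14, the long host transcript of the imprinted snoRNA cluster on chromosome 7, 3 peaks were found, of which 2 had 28 and 27 fragments over backgrounds of 7.93 and 9.92, only 3.25-fold and 2.56-fold. A peak inside Snhg15, another snoRNA host gene, had 29 fragments over 4.96 (5.03-fold).

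The highest folds of the list were mostly more than 5 kb from the listed p53 targets. After the Gm13067 peak came peaks near 2 pseudogenes, at 9.54-fold (18 fragments over 0.992), 14013 bp from Gm13683 on chromosome 2, and at 9.44-fold (17 over 0.906), 11.9 kb from Gm9923 on chromosome 10. The nearest protein-coding genes were far off, Zc3h15 at 172006 bp and Zwint, a kinetochore gene, at 357588 bp. Others of the top 20 lay inside Prlr, the prolactin receptor (7.53-fold), inside Kcnq5, a potassium channel (7.35-fold), inside Pde1c, a phosphodiesterase (7.35-fold), and inside Ptprt, a receptor phosphatase (6.82-fold). Inside Sc5d, a gene of cholesterol synthesis, a peak of 6.82-fold lay 2006 bp from an end. The peak 16.5 kb from Ereg, which encodes the growth factor epiregulin, reached 7.53-fold, and that 1222 bp from Dyrk3, a kinase, 7.10-fold. Only 1 of the top 20 had more than 30 fragments, and 14 fragments or fewer stood behind 12 of them.

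Peaks with more than 20 fragments and a background of at most 10 numbered 12, named here after their values were seen. Rps19, which encodes a protein of the small ribosomal subunit, had 31 fragments over 3.97 (6.44-fold), 251 bp from an end, and was also in the K17KO p53 and H3K4me3 lists. Hjurp, a chaperone of centromeric histone, had 24 over 8.93, 2.52-fold. Marker genes of the tissue were also looked up: none of 29 genes of skin epithelium had a peak within 5 kb, and of 20 genes of dermis and other cells 2 did. Beside the 2.86% of all protein-coding genes, lists of this size hold too few genes to set either count apart. The 2 were Col3a1, a fibrillar collagen, at 5.02-fold and Thy1, a fibroblast and T cell surface protein, at 4.03-fold. Krt17, which encodes keratin 17, was 61762 bp from its nearest peak.

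Over the chromosomes, 302 of 2873 peaks (10.5%, 9.41 to 11.7%) were within 1 kb of an end of any gene, and 6.31% of the bases are. The bases are all those between the outermost genes or peaks, with no mask for assembly gaps or repeats. The part that this has in the comparisons was not tested. Within 5 kb lay 901 peaks (31.4%, 29.7 to 33.1%), against 23.6% of the bases. Peaks inside a gene made up 53.4% (48.7% of the bases), and 34.0% were between genes and more than 5 kb from any end (41.4% of the bases). Deep inside genes, over 5 kb from any end, the share of peaks, 34.6%, was that of the bases, 35.0%, within its interval of 32.9 to 36.4%.  Of the peaks within 1 kb of a protein-coding gene whose strand is listed, 89 were at a 5′ end and 50 at a 3′ end. At lncRNA genes the counts were 43 and 34.

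**Figure D3:**
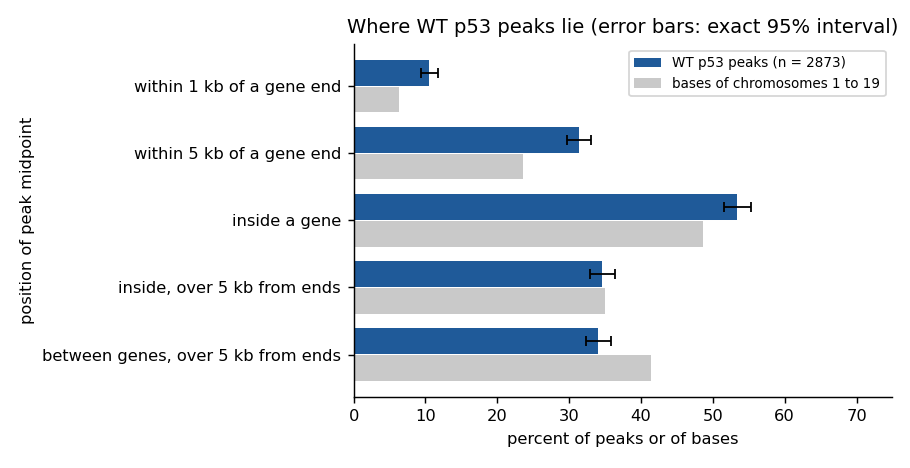
Share of WT p53 peaks (dark bars, with exact 95% intervals) and of the bases of chromosomes 1 to 19 (pale bars) in each position, in percent. Peaks exceed bases within 1 kb and 5 kb of a gene end and inside genes, are close to them deep inside genes and fall below them between genes. All bases count, with no mask for assembly gaps or repeats.

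The share near gene ends was set out by depth. Within 1 kb lay 12.1% of peaks with 5 fragments and 8.87% of those with 6, but 20.4% with 11 or 12, 18.8% with 13 to 20 and 29.0% with 21 or more (14.2 to 48.0%, 31 peaks). Of those 31 peaks, only 12 had a background of at most 10, and the median fold of all 31 was 2.42. By fold, 18.0% of the top 50 (8.58 to 31.4%) and 8.0% of the next 150 (4.20 to 13.6%) were within 1 kb, followed by 9.2%, 10.0% and 11.3% in the lower tiers, so fold showed no steady trend. The median distance to the nearest end of any gene was 11444 bp and to that of a protein-coding gene 29399 bp. In all, 189 peaks (6.58%) were more than 100 kb from any gene end, up to 604579 bp.

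Most genes with a peak had only 1: 26 of 1173 genes with a peak within 5 kb had more. The genes with several peaks inside were long, and choosing genes by their number of peaks in itself favours long ones. The 21 genes with at least 3 peaks inside had a median length of 487138 bp, where that of protein-coding genes is 17491 bp. Ptprg, a receptor phosphatase, and Spock1, a proteoglycan of the matrix, held 5 each, 7.26 and 10.3 per Mb of gene. Mast4, Nav2, Npas3, Bckdhb and the shorter Tmem267 held 4 each, from 4.85 per Mb in Npas3 to 32.7 in Tmem267, where some of the peaks have a high background. The immunoglobulin loci Igh and Igk, which span several Mb, held 5 and 4, or 1.82 and 1.26 per Mb.

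Neighbouring peaks were far apart. The median of 2854 gaps was 519 kb (493 to 546 kb), the quartiles were 203 and 1126 kb, and the mean was 835 kb. The median was 0.622 of the mean, where points scattered at random along a line give 0.693. The same ratio was 0.581 in the K17KO p53 list and 0.309 in the H3K4me3 list. Gaps of at most 1 kb numbered 10 (0.350%, 0.168 to 0.643%), against 0.120% for random scatter. Gaps of at most 100 kb numbered 398 (13.9%, 12.7 to 15.3%), against 11.3%. The closest neighbours were 248 bp apart on chromosome 5, 104791 bp from the pseudogene Gm7902. Next were pairs inside Spock1 (285 bp), inside the serpin gene Serpina12 (291 bp), inside Tmem267 (307 bp) and inside the RNA editing gene Adarb1 (503 bp). The largest gap, 13.4 Mb, followed a peak near Oxr1 on chromosome 15.

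**Figure D4:**
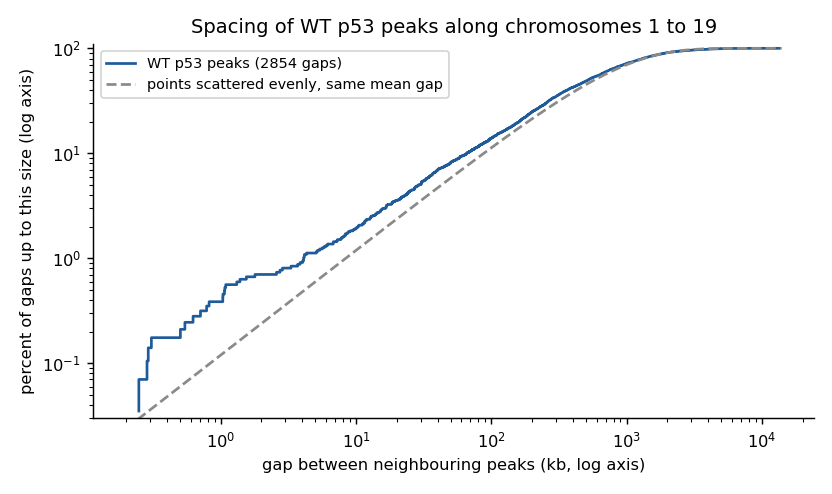
Percent of the 2854 gaps between neighbouring WT p53 peaks that are at most a given size (kb), both axes logarithmic. The dashed curve, labelled as points scattered evenly, is for points scattered at random with the same mean gap. The measured line lies above the dashed curve at small gaps, still does so at the median gap of 519 kb, and draws together with it toward the largest.

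The densest stretch of 1 Mb, with 17 peaks, was on chromosome 7 among Vmn1r genes, vomeronasal pheromone receptors that occur there in tandem copies. The whole cluster was singled out after its values were seen, and is bounded here by the outermost Vmn1r genes. Its 3.95 Mb hold 86 Vmn1r genes, and 175 genes of any kind, of which 70 are pseudogenes. In this stretch the WT list had 29 peaks, 7.33 per Mb (4.91 to 10.5), and the rest of chromosome 7 had 1.47 per Mb (1.28 to 1.69). Neither of the other lists had a peak there, 0 per Mb in each (0 to 0.933). The K17KO p53 list has 0.441 per Mb over all these chromosomes, a value inside that interval. The 29 peaks had a median of 4.20-fold (range 3.20 to 5.25), 7 fragments (6 to 10) and a background of 0.992 (0.906 to 1.98), where the list as a whole has medians of 4.02, 7 and 0.992. Of them, 22 passed a q-value of 0.1, 10 were within 5 kb of a gene end and 2 inside a gene, and their median gap was 79.5 kb. The part that the near-identical copies of these genes have in this count was not tested. Over the genome, 7 of 230 protein-coding Vmn1r genes had a peak within 5 kb, near the 2.86% of all protein-coding genes. The counts were 2 of 122 for Vmn2r, 13 of 1104 for olfactory receptor (Olfr), 16 of 388 for zinc finger (Zfp), 2 of 53 for keratin (Krt) and 3 of 91 for ribosomal protein (Rps or Rpl) genes.

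The densest 100 kb of the Vmn1r stretch held 5 peaks, with Vmn1r157, Vmn1r158 and Vmn1r160 among the nearest genes. The next dense windows of 100 kb with ordinary backgrounds had 4 peaks each. They lay at Prss35 and Snap91 on chromosome 9, at Eif1, Jup and Fkbp10 on chromosome 11, where Jup encodes the junction protein plakoglobin, and in Spock1. A group of 5 peaks at 3.0 Mb on chromosome 9, near Mir101c, was of another kind. Its peaks had 364 to 431 fragments over backgrounds of 285 to 365, so that their folds were only 1.17 to 1.32. In all, 19 peaks had a background above 10, and 11 of these lay beyond the outermost gene of their chromosome or within 200 kb of its end. Of the other 2854 peaks, 7 (0.245%) did.

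The list had 1.18 peaks per Mb (1.13 to 1.22). On 4 chromosomes the interval left out the mean of the WT list. Chromosome 7 had the most, 1.63 per Mb (1.43 to 1.85), and chromosome 9 had 1.42 (1.22 to 1.65). Counting only peaks with a background of at most 10, they had 1.62 and 1.37, for which no interval was computed. The 19 intervals were not adjusted for their number. Chromosome 6 had 0.963 (0.812 to 1.13) and chromosome 16 the fewest, 0.847 (0.674 to 1.05). Across the 19 chromosomes the density rose with gene density, with Spearman's rho of 0.65, or 0.59 without chromosome 7, given as a description. Per 1000 genes the peaks numbered from 48.8 on chromosome 17 to 74.7 on chromosome 18.

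**Figure D5:**
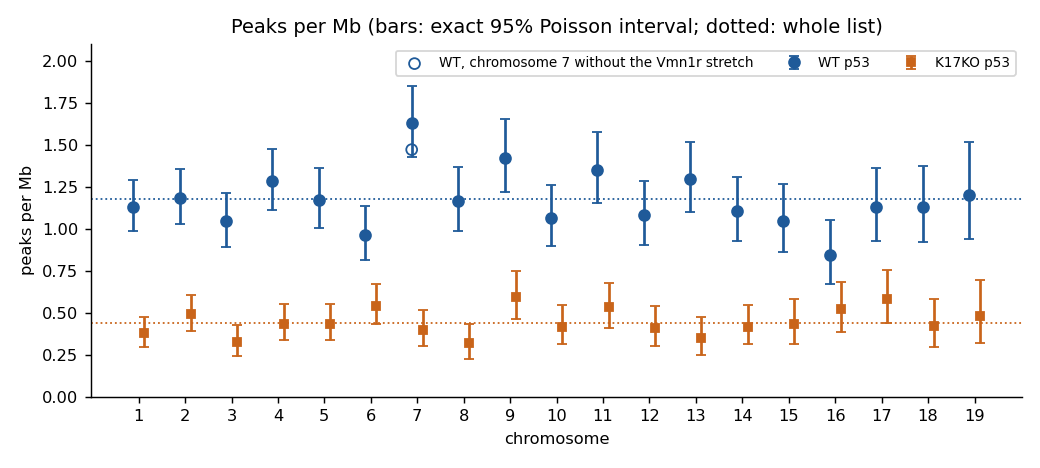
Peaks per Mb on chromosomes 1 to 19 for the WT p53 list (circles) and the K17KO p53 list (squares), with exact 95% Poisson intervals; dotted lines are the whole lists. The WT point of chromosome 7 is the highest, at 1.63, and the open circle shows it at 1.47 without the Vmn1r stretch.

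The highest peak of each chromosome was named by its gene. On chromosomes 7 and 17 it was at Bax and Cdkn1a, the only 2 of the 19 within 5 kb of a listed target. On chromosome 4 it was the Gm13067 peak. On chromosomes 12, 14 and 18 the highest fold was shared by 2 peaks each. One of each pair lay inside Ldah, a lipid droplet hydrolase, at 6.02-fold on chromosome 12, inside Dock5 at 6.28-fold on chromosome 14, and inside Nol4 at 6.30-fold on chromosome 18, where the other was that near the pseudogene Gm18929. The lowest of these maxima was 5.77, on chromosome 13, 28623 bp from the lncRNA Gm33447.

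Last, the WT list was set beside the others. Within 1 kb of an end lay 28.5% of K17KO p53 peaks (25.8 to 31.3%) and 65.4% of H3K4me3 peaks, against the 10.5% above. Genotype and list cannot be told apart here. The p53 lists shared 9 sites, 0.313% of the WT and 0.836% of the K17KO peaks. They were the Gm13067, Bax, Rps19 and Rps27l peaks, one at Cdc34, a ubiquitin-conjugating enzyme, one in Ndnf, one 6275 bp from the lncRNA Gm36301, and those near Gm45871 and Smgc, with backgrounds of 50.6 and 7.71. With H3K4me3, 28 WT peaks overlapped (0.975%), of which 20 were within 1 kb of a gene end. Of the 14 peaks at listed targets, 9 overlapped an H3K4me3 peak (64.3%, 35.1 to 87.2%), and of the other 2859 peaks, 19 did (0.665%). By choice, the target peaks all lay within 5 kb of a gene end. So did 82.3% of H3K4me3 peaks, but only 31.4% of all WT peaks. The shares are therefore not like for like, and the part of position in them was not tested.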

How the data were processed

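The 3 lists were deposited by the authors in the narrowPeak format of MACS2. Bowtie2 2.2.5, SAMtools 1.7 and MACS2 2.1.2 with build mm10 are named, per the submitters' processing notes, without role or order. No source used here gives the libraries, control or calling threshold. Per peak, the authors deposited a score (10 times −log10 p without decimals), a fold enrichment as a ratio, −log10 p and −log10 q values, and, as other information, the summit's offset.

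Fragments at the summit and background were recovered from fold, taken as fragments plus 1 over background plus 1, and from p as a Poisson tail. The background was set so that the fold is met for any number of fragments. The best whole number of fragments then met p within 0.001 in −log10 p for 100% of peaks. Distances ran from peak midpoints to the nearer end of a gene in a RefSeq table of GRCm38.p6 without strand or exons. Strand came from the promoter table, for 79.6% of protein-coding and 74.9% of lncRNA genes. The summit, windows of 1 and 20 kb, q-value limits, other gene sets and stricter overlaps were tried as alternatives. Helper functions were tested on simulated data. Python 3.11.15, pandas 2.3.3 and scipy 1.17.1 were used. Named were the 20 peaks of highest fold, each chromosome's highest, the 10 widest, the closest and densest groups, noncoding neighbours and listed targets with a peak, and overlapped promoter windows with a half-site, listed targets first and then by fold. Members and lists were chosen with earlier results of these data known.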

Additional observations from a re-analysis of the deposited data

How the results depend on the processing

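Of 46 alternatives, 25 left their value within its interval, or a count within 1.5 times, and 21 moved it. At a q-value of at most 0.1, protein-coding genes with a peak fell to 330, noncoding genes to 350, and the median gap grew to 849 kb. At 0.01 these were 75, 71 and 4772 kb, with 5 p53 targets and a median width of 234 bp. In the upper 50% by fold they were 278, 297 and 980 kb, and 29.4% of peaks were within 5 kb of a gene end. These settings keep fewer peaks. With a window of 1 kb the share was 10.5%, with 172 protein-coding and 165 noncoding genes. With 20 kb it was 63.9%, with 1842, 1752 and 19 p53 targets. Without predicted genes and pseudogenes the share within 5 kb was 16.9% and that with a noncoding nearest gene 5.95%, where 12.3% of the 21869 genes left are noncoding. The share of bases nearest to them was not computed, so these shares of peaks and of genes are not like for like. Leaving out the Vmn1r stretch, chosen after seeing the data, moved none of the 6 values computed without it. No paired analysis was possible because the list carries no replicate or sample. Most peaks rest on 5 to 8 fragments and none on fewer than 5, and the calling threshold is unknown.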
